A study of Homo sapiens with 12 samples.

Results

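The ATP-binding cassette (ABC) family was followed through a bulk RNA-seq study of paclitaxel treatment in breast cancer cells with and without GLI2 knockout. Members were all rows of the deposited count table whose symbol reads ABC, a subfamily letter from A to G and a number. This gave 39 genes of the 25049 in the table, and 38 of them passed the filter on low counts. ABCC12 did not pass and has no fitted fold change or test.

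The cells were MDA-MB-231b, a bone-tropic derivative of the established triple-negative breast cancer line MDA-MB-231 selected by passage in mouse bone marrow (athymic nude mice). Each of 4 groups held 3 libraries. GLI2 KO cells received 50 nM paclitaxel for 2 days or DMSO, the solvent, for the same time, and WT cells received the same 2 treatments. Both genotypes had received CRISPR-Cas9 by lentivirus. The KO cells carried a guide to GLI2 and the WT cells a non-targeted one. The sources used here do not say whether the KO cells were 1 clone or a pool, or whether the libraries of a group came from separate cultures. The p-values therefore measure only the spread between these libraries, which may be technical. In bulk RNA, fewer cells of a type and less RNA per cell cannot be told apart.

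ABC proteins couple ATP hydrolysis to the movement of lipids, drugs, metabolites, peptides or metal complexes across a membrane. Some ABCB, ABCC and ABCG members pump drugs out of cells, and P-glycoprotein, the product of ABCB1, is a well-known exporter of paclitaxel. Most ABCA members and several ABCG members handle lipids, the ABCD members serve peroxisomes and lysosomes, and ABCE1 and the ABCF proteins lack membrane segments and act on ribosomes.

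Library totals lay between 83230948 and 109018776 counts, and a level of 3 counts equals 0.0275 to 0.0360 CPM, where CPM is a count scaled to library size with TMM factors. GLI2, the gene the guide targets, had 358, 384 and 484 counts in GLI2 KO paclitaxel libraries, 724, 726 and 907 in GLI2 KO DMSO libraries, 568, 509 and 504 in WT paclitaxel libraries and 1075, 932 and 935 in WT DMSO libraries. GLI2 was 26.4% lower in GLI2 KO than in WT cells under paclitaxel and 14.6% lower in DMSO. Counting RNA does not show whether the gene was edited. Of 7 listed markers of the line, 6 were in the table, all but ESR1. VIM, CD44 and AXL were abundant, while PGR, which is normally low in triple-negative cells, was higher in GLI2 KO cells by 6.62 ± 0.44 under paclitaxel and 8.96 ± 0.39 in DMSO on the log2 scale. Counts of PGR are not given here, so its level in WT cells is not shown. Under paclitaxel ERBB2 was also higher in GLI2 KO cells, and VIM and CD44 were lower. In DMSO EPCAM was also higher in GLI2 KO cells, and AXL was lower. Replicates differed by more than counting noise, most of all for replicate 3 of the GLI2 KO DMSO group, whose chi-square per degree of freedom was 13.7 and 17.9 against the other two. Results that rest on it are given with and without it.

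Together the 39 members took 1021 to 1041 CPM in GLI2 KO paclitaxel libraries, 1157 to 1167 CPM in GLI2 KO DMSO libraries, 1127 to 1161 CPM in WT paclitaxel libraries and 1242 to 1281 CPM in WT DMSO libraries. Within each genotype the sum was lower in all paclitaxel than in all DMSO libraries, and under each treatment it was lower in all GLI2 KO than in all WT libraries, while GLI2 KO DMSO and WT paclitaxel libraries overlapped. The difference between treatments was seen with TMM scaling and not in shares of all counts. Family sums under other scalings were not computed. As a share of all counts the family took 0.107 to 0.111% in GLI2 KO paclitaxel, 0.108 to 0.109% in GLI2 KO DMSO, 0.120 to 0.123% in WT paclitaxel and 0.119 to 0.122% in WT DMSO libraries, so that treatments overlapped in both genotypes and the genotypes stayed apart. ABCE1 alone averaged 133 CPM in GLI2 KO and 254 CPM in WT cells under paclitaxel, and 149 and 257 CPM in DMSO. That gap is at least as wide as the gap between the mean family sums of the genotypes. The sums therefore do not show that the rest of the family was lower in GLI2 KO cells. Levels between genes were compared as CPM per kb of exon. ABCF1 and ABCE1, both of which act in translation, and ABCD3, a peroxisomal importer, held the top 3 places in all 4 groups. In WT DMSO cells, ABCE1 stood at 41.0 ± 0.85 and ABCF1 at 38.7 ± 1.16 CPM per kb (SD, n = 3), a gap wider than either SD, and ABCD3 followed at 19.7 ± 0.0645. In GLI2 KO DMSO cells the order was ABCF1 at 39.6 ± 2.81, ABCE1 at 23.7 ± 0.83 and ABCD3 at 22.6 ± 0.15, so that ABCE1 lay close to ABCD3 there. Among the drug exporters, ABCC1 was the most abundant per kb in every group and ABCG2 stood at 3.71 ± 0.22 in GLI2 KO paclitaxel, 2.49 ± 0.10 in GLI2 KO DMSO, 3.62 ± 0.097 in WT paclitaxel and 2.24 ± 0.21 in WT DMSO cells. At the other end, ABCB1, ABCA9, ABCA6, ABCB5 and ABCC12 took the lowest 5 places in both DMSO groups, each at or below 0.00256 CPM per kb.

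The first comparison asks how paclitaxel changed the family in each genotype. In GLI2 KO cells 11 of 38 members rose and 14 fell (edgeR quasi-likelihood test, adjusted p below 0.05), while 33.0% of all tested genes rose and 32.2% fell, 65.2% in all. In WT cells 14 rose and 15 fell, against 34.6% and 32.1% of all tested genes, 66.7% in all. The members' shares in each direction are thus near those of the whole table, and their median log2 fold changes of 0.01 in GLI2 KO and 0.04 in WT cells stood beside 0.02 and 0.03 over all genes. All 11 members that rose in GLI2 KO cells also rose in WT cells, where they make up 78.6% of the rises. They are ABCA4, ABCA6, ABCA9, ABCA10, ABCB1, ABCB4, ABCB5, ABCC2, ABCC9, ABCG2 and ABCG4. The 12 members that fell in both genotypes are 85.7% of the falls in GLI2 KO and 80.0% of those in WT cells.

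Rises and falls differed in size and in the level of the genes. Rises of at least 2-fold numbered 8 in GLI2 KO and 11 in WT cells, where 16.0% and 18.0% of all genes rose that much. No member fell by as much as 2-fold in either genotype, and 0.819% and 0.587% of all genes did. The largest fall was that of ABCB10, 42.9% in GLI2 KO and 41.4% in WT cells. The members that rose had a median level of 0.109 CPM in GLI2 KO DMSO and 0.338 CPM in WT DMSO cells, and those that fell had 46.6 CPM in both. The split depended on scaling. With upper-quartile factors, which shift the median of all genes by 0.12 in GLI2 KO and 0.13 in WT cells on the log2 scale, 16 members rose and 8 fell in GLI2 KO and 19 rose and 10 fell in WT cells. With library totals alone, which shift it by 0.18 and 0.16, the counts were 17 and 7 in GLI2 KO and 20 and 10 in WT cells.

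**Figure D1:**
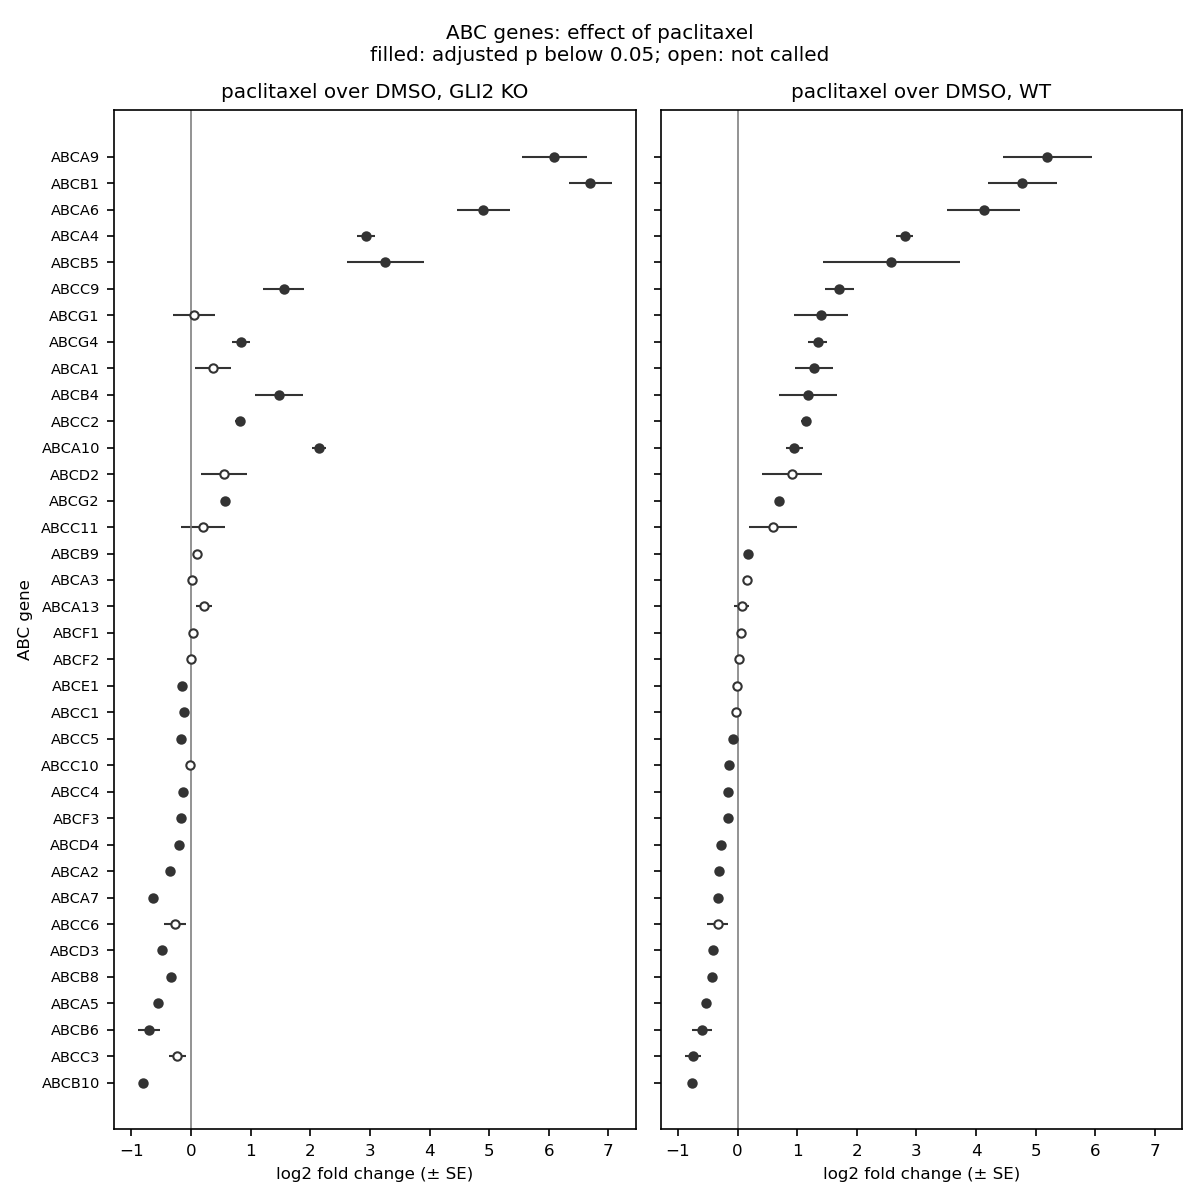
Log2 fold change of paclitaxel over DMSO (x axis, bars are ± SE from edgeR) for 36 of the 38 tested ABC genes (y axis, ordered by the WT value), in GLI2 KO cells on the left and WT cells on the right; filled points passed an adjusted p of 0.05 and open points did not. ABCB1, ABCA9 and ABCA6 lie far to the right in both genotypes, and no filled point lies beyond -1 on the left.

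The second comparison asks how the genotypes differed. Under paclitaxel 13 members were higher and 6 lower in GLI2 KO than in WT cells, where 23.4% and 22.2% of all tested genes were higher and lower, 45.6% in all. In DMSO 10 were higher and 8 lower, against 22.0% and 19.6%, 41.6% in all. Differences of at least 2-fold were higher for 6 members and lower for 1 under paclitaxel, against 3.49% and 2.88% of all genes, and higher for 4 and lower for 1 in DMSO, against 4.15% and 2.58%. The 6 are ABCB1, ABCB5, ABCA5, ABCA6, ABCA9 and ABCA10. ABCB5 passed the low-count filter through the GLI2 KO paclitaxel libraries alone, and the ABCA members among the 6 are neighbours on chromosome 17. These 6 calls are therefore not independent, and their share does not show a difference of the family as such. The median log2 difference of the members was 0.04 under paclitaxel and 0.10 in DMSO, beside -0.01 and 0.01 over all genes. Higher in GLI2 KO cells under both treatments were ABCA5, ABCA7, ABCA10, ABCB8, ABCB9, ABCD2 and ABCD3, and lower under both were ABCA4, ABCB10, ABCC5, ABCC9, ABCD4 and ABCE1. With upper-quartile factors 11 members were higher and 9 lower under paclitaxel and 9 were higher and 11 lower in DMSO, and library totals gave the same split as these in DMSO.

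**Figure D2:**
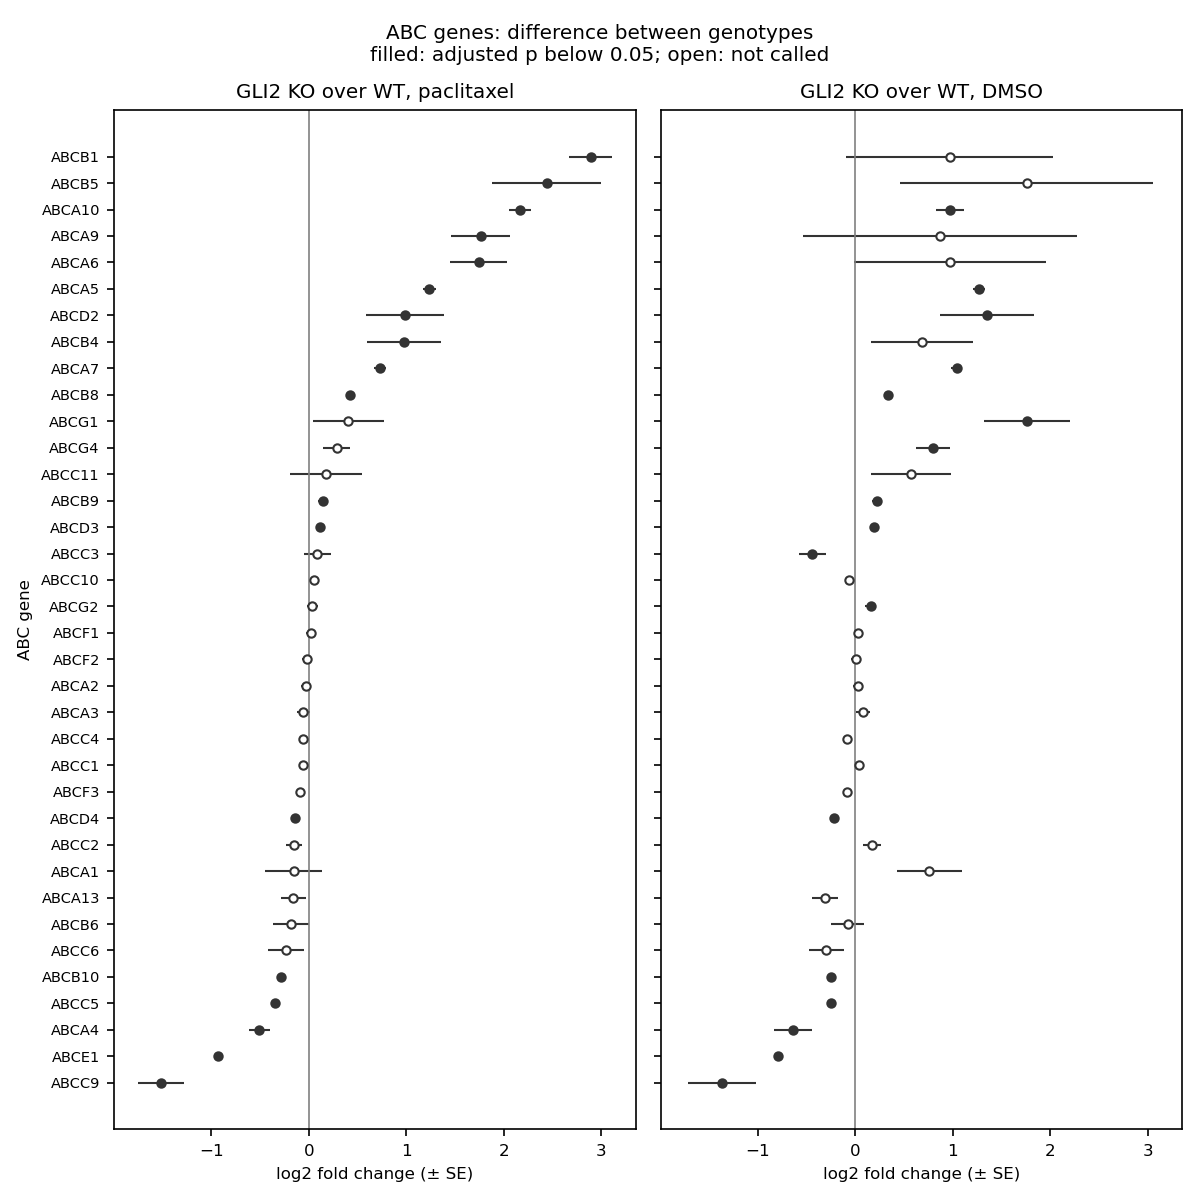
Log2 fold change of GLI2 KO over WT (x axis, bars are ± SE from edgeR) for 36 of the 38 tested ABC genes (y axis, ordered by the paclitaxel value), under paclitaxel on the left and in DMSO on the right; filled points passed an adjusted p of 0.05. ABCB1, ABCB5, ABCA9 and ABCA6 have short bars and filled points under paclitaxel, and long bars and open points in DMSO, where their counts are near 0.

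ABCB1, at chr7:87503633-87713323 on the minus strand (GRCh38, GENCODE 29), was almost silent in DMSO. Its raw counts were 162, 163 and 191 in GLI2 KO paclitaxel libraries, 0, 1 and 3 in GLI2 KO DMSO libraries, 27, 17 and 22 in WT paclitaxel libraries and 0, 1 and 1 in WT DMSO libraries. Every paclitaxel library stood above every DMSO library, and every GLI2 KO paclitaxel library above every WT paclitaxel library, while the 2 DMSO groups overlapped. Replicates stood apart in the same way for 34.4% of all tested genes under paclitaxel in GLI2 KO cells, for 37.1% in WT cells, and for 27.9% between GLI2 KO and WT cells under paclitaxel. Because the DMSO groups sum to 4 counts in GLI2 KO and 2 in WT cells, the paclitaxel effect is given as a ratio of shares, the gene's summed counts divided by the summed totals of the libraries, which was 127 in GLI2 KO cells (exact binomial 95% interval 49.5 to 469) and 36.0 in WT cells (9.57 to 303). Such intervals cover counting error only. Both rises passed the edgeR test, with adjusted p-values of 4.2e-14 in GLI2 KO and 9.5e-08 in WT cells. ABCB1 passed the low-count filter through its paclitaxel libraries alone, so a rise was partly a condition of being tested. Of tested genes with at most 10 mean counts in either genotype's DMSO libraries, 60.5% rose in GLI2 KO and 64.9% in WT cells. Under paclitaxel, GLI2 KO cells held 7.43 times the ABCB1 of WT cells (5.75 to 9.76), with a fitted log2 fold change of 2.89 ± 0.22 and an adjusted p of 5.1e-11. Only 78 of the 21974 tested genes, ABCB1 included, had a log2 difference that high. The test of whether paclitaxel raised ABCB1 more in GLI2 KO than in WT cells gave a log2 difference of 1.92 ± 1.46 and an adjusted p of 0.442, so a difference between the 2 rises was not detectable at these counts.

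Even at its highest, ABCB1 was a minor transcript of the family. Per kb of exon it stood at 0.303 ± 0.00554 in GLI2 KO paclitaxel cells, rank 26 of 39, and at 0.0408 ± 0.0105 in WT paclitaxel cells, rank 31. RUNDC3B overlaps the span of ABCB1 on chromosome 7 on the other strand and shares no exon bases with it. RUNDC3B was higher in GLI2 KO than in WT cells by 2.77 under paclitaxel and 3.50 in DMSO on the log2 scale (edgeR adjusted p 1.8e-14 and 2.9e-15), that is, also where ABCB1 was near 0. A short list of markers of blood cells, which can carry P-glycoprotein, had 3 of its 5 genes in the table (PTPRC, SPI1 and CD68). Their summed level was 0.787 to 1.15 CPM in GLI2 KO paclitaxel, 0.256 to 0.389 in GLI2 KO DMSO, 0.333 to 0.474 in WT paclitaxel and 0.106 to 0.134 in WT DMSO libraries. PTPRC rose under paclitaxel and was higher in GLI2 KO cells by 2.47 ± 0.29 under paclitaxel and by 2.49 ± 0.41 in DMSO. SPI1, the other tested gene of this list, also rose under paclitaxel in both genotypes. Its difference between genotypes was not called under either treatment. A list for liver and gut, tissues rich in these exporters, had 2 of 5 genes in the table, summed to 0.259 to 0.408 CPM in GLI2 KO paclitaxel, 0.0778 to 0.167 in GLI2 KO DMSO, 0.177 to 0.215 in WT paclitaxel and 0.0773 to 0.134 in WT DMSO libraries, and ALB, at 0 in GLI2 KO DMSO cells, rose under paclitaxel in both genotypes. A list for fibroblasts and osteoblasts had 5 of 6 genes in the table, with sums of 77.5 to 80.6, 57.2 to 60.6, 70.1 to 72.0 and 58.4 to 63.0 CPM in the same order of groups. All 4 of its tested genes, PDGFRA, PDGFRB, RUNX2 and COL1A1, rose under paclitaxel in both genotypes, where 33.0% of all tested genes rose in GLI2 KO and 34.6% in WT cells. Under paclitaxel all but RUNX2, which was lower, were higher in GLI2 KO than in WT cells, while 23.4% of all tested genes were higher. In DMSO, PDGFRA and PDGFRB were higher in GLI2 KO cells, and RUNX2 and COL1A1 were lower. The part of these markers in the ABCB1 result was not tested.

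**Figure D3:**
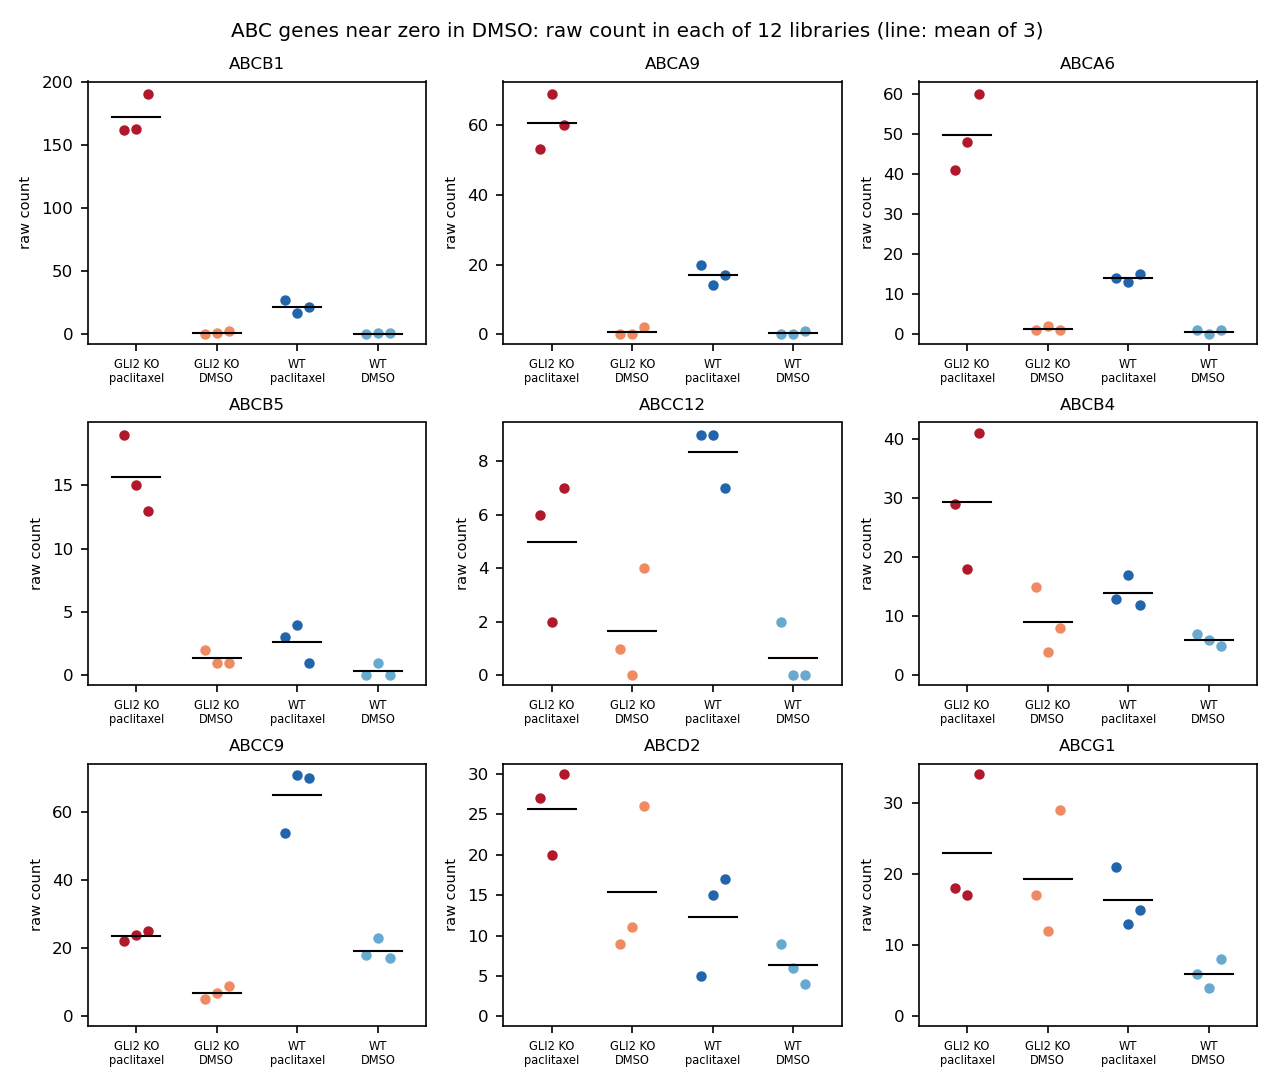
Raw count (y axis) in each of the 12 libraries for the 9 ABC genes with a mean of at most 10 counts in the DMSO libraries of either genotype; points are libraries, lines are means of 3, and groups run from GLI2 KO paclitaxel on the left to WT DMSO on the right. ABCB1, ABCA9, ABCA6 and ABCB5 are highest in GLI2 KO paclitaxel libraries, and ABCC9 and ABCC12 in WT paclitaxel libraries.

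Start regions of ABCB1 and of the ABCA cluster on chromosome 17 are shown because, ABCB5 aside, these members had the largest log2 fold changes of GLI2 KO over WT under paclitaxel. RefSeq promoter windows of 250 bases before to 50 after a start (GRCh38.p14) were found for 31 of the 39 members, with 48 windows in all. One window each is printed for ABCB1 and for 4 neighbours on chromosome 17, ABCA9, ABCA6, ABCA10 and ABCA5. All lie on the minus strand and are written 5′ to 3′. ABCB1 lies at chr7:87600835-87601134, ABCA9 at chr17:69060878-69061177, ABCA6 at chr17:69141846-69142145, ABCA10 at chr17:69228775-69229074 and ABCA5 at chr17:69327084-69327383. ABCB1 and ABCA10 have a further listed start that is not printed, and neither of those windows holds a match to the letters below. Capitals mark matches, on either strand, to TGANTCA for AP-1, to CCAAT for the CCAAT box, to GGGCGG for the GC box, to CACGTG for the E-box or to GACCACCCA for GLI. In the ABCB1 window a CCAAT and an AP-1 match share 1 base, and in the ABCA10 window an AP-1 match lies close to a CCAAT match on the other strand.
ABCB1: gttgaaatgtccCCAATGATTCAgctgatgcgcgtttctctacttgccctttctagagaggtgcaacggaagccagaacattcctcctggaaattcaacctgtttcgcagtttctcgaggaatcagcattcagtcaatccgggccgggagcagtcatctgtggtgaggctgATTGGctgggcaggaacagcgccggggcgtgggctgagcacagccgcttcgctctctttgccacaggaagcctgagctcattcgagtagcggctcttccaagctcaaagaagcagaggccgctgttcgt
ABCA9: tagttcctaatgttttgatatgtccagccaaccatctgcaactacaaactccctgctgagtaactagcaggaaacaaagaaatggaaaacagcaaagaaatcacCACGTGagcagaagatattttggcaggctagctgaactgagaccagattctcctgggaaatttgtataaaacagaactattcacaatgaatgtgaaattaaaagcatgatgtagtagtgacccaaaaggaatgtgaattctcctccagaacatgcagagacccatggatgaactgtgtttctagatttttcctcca
ABCA6: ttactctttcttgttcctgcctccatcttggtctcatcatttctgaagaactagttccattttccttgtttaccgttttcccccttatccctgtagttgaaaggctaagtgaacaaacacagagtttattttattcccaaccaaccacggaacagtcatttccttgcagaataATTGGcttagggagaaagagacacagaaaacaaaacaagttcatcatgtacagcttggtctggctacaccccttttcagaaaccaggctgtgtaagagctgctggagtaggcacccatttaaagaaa
ABCA10: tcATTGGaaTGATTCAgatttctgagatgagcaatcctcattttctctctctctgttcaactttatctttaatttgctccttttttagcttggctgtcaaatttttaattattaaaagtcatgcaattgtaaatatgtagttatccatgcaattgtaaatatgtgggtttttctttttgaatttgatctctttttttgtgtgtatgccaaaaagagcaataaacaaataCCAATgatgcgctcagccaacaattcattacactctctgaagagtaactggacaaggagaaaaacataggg
ABCA5: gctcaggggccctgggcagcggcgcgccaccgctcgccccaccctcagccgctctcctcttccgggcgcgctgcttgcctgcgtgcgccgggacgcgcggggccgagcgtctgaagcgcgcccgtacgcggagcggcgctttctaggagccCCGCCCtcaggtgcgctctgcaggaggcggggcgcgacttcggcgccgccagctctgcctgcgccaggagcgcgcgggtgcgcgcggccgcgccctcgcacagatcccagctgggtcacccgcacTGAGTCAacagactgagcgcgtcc
Over all 48 member windows, 10.4% held the AP-1 letters, 22.9% CCAAT, 52.1% the GC box and 16.7% the E-box, and none held the GLI letters. Over the 35116 windows of the whole table the shares were 7.71%, 34.6%, 45% and 7.26%, and 0.236% held the GLI letters. A match describes these letters in this window and does not show binding.

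The other exporters with a known or proposed part in drug resistance moved less. ABCG2, the breast cancer resistance protein, had 17.5, 19.6 and 19.1 CPM in GLI2 KO paclitaxel libraries, 12.2, 13.2 and 12.4 in GLI2 KO DMSO libraries, 17.8, 18.3 and 18.8 in WT paclitaxel libraries and 10.6, 12.5 and 10.9 in WT DMSO libraries. All paclitaxel libraries were above all DMSO libraries, and the genotypes overlapped under both treatments. ABCG2 rose by 0.57 ± 0.06 in GLI2 KO and 0.69 ± 0.06 in WT cells (adjusted p 6.3e-09 and 2.4e-10). The genotype difference in DMSO, 0.16 ± 0.06 with an adjusted p of 0.0439, passed in 10 of 21 alternative settings.

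ABCC2 encodes MRP2, an exporter of conjugates that also carries taxanes. It averaged 7.71 ± 0.41 CPM in GLI2 KO paclitaxel, 4.39 ± 0.61 in GLI2 KO DMSO, 8.57 ± 0.55 in WT paclitaxel and 3.88 ± 0.041 in WT DMSO cells (SD, n = 3 each). It rose by 0.82 ± 0.08 in GLI2 KO and 1.14 ± 0.08 in WT cells (adjusted p 6.5e-09 and 1.6e-11). The difference between these rises, -0.33 ± 0.12, had an adjusted p of 0.0743, and without GLI2 KO DMSO replicate 3, whose 3.69 CPM was the lowest ABCC2 value of all, it was -0.44 with an adjusted p of 0.00444.

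ABCB5, known as a marker of progenitor cells in skin and cornea, had 19, 15 and 13 counts in GLI2 KO paclitaxel libraries, 2, 1 and 1 in GLI2 KO DMSO libraries, 3, 4 and 1 in WT paclitaxel libraries and 0, 1 and 0 in WT DMSO libraries. The GLI2 KO paclitaxel libraries stood above all others, and the 2 WT groups overlapped. Its summed ratio was 11.6 in GLI2 KO cells (4.24 to 44.3) and 8.72 in WT cells (1.17 to 387), and the WT rise, at an adjusted p of 0.049988, passed in 5 of 19 alternatives and was lost in 10 of the 12 fits that left out 1 library. GLI2 KO cells held 5.59 times the ABCB5 of WT cells under paclitaxel (2.62 to 13.7). ABCB5 passed the low-count filter through the GLI2 KO paclitaxel libraries alone, so its differences from that group are given as values and not as support. ABCC12 had 6, 2 and 7 counts in GLI2 KO paclitaxel libraries, 1, 0 and 4 in GLI2 KO DMSO libraries, 9, 9 and 7 in WT paclitaxel libraries and 2, 0 and 0 in WT DMSO libraries. Its summed ratio of paclitaxel to DMSO was 2.96 in GLI2 KO (1.02 to 10.4) and 13.6 in WT cells (3.40 to 119). ABCC11, its neighbour on chromosome 16, had 0.154 to 0.256 CPM in GLI2 KO and 0.0489 to 0.237 CPM in WT cells and passed no test with all libraries in.

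ABCC3, or MRP3, an exporter of glucuronides and bile acids, went the other way in WT cells. It had 31.7, 32.2 and 32.9 CPM in GLI2 KO paclitaxel libraries, 34.1, 32.5 and 46.7 in GLI2 KO DMSO libraries, 30.4, 30.2 and 30.7 in WT paclitaxel libraries and 49.4, 58.2 and 46.4 in WT DMSO libraries. In WT cells all paclitaxel libraries were below all DMSO libraries, and in GLI2 KO cells they overlapped. ABCC3 fell by 0.75 ± 0.14 in WT cells (adjusted p 0.00103), and the value in GLI2 KO cells was -0.23 ± 0.14 (adjusted p 0.176). The difference between the effects, 0.52 ± 0.19, did not pass (adjusted p 0.123), and without GLI2 KO DMSO replicate 3 it was 0.71 with an adjusted p of 0.000291. In DMSO, ABCC3 was lower in GLI2 KO cells by 0.44 ± 0.13 (adjusted p 0.029), a call lost without any one of GLI2 KO DMSO replicates 1 and 2 and WT DMSO replicates 1 and 2 (adjusted p 0.0581 to 0.103).

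The abundant ABCC members kept to a narrow range. ABCC1 (MRP1, a glutathione-conjugate exporter) averaged 75.8 to 82.8 CPM over the 4 groups, ABCC4 (MRP4, which exports cyclic nucleotides) 43.2 to 50.2, ABCC5 (MRP5) 34.7 to 46.6 and ABCC10 (MRP7) at most 31.9. Their paclitaxel effects lay between -0.18 and -0.02 on the log2 scale, and each turned positive in at least 1 genotype under library totals or upper-quartile factors. ABCC5 was lower in GLI2 KO than in WT cells by 0.35 ± 0.03 under paclitaxel and 0.25 ± 0.03 in DMSO (adjusted p 4.5e-09 and 1.0e-06). ABCC6, whose loss causes pseudoxanthoma elasticum, averaged 0.653 to 0.970 CPM and passed no test, and it has near-identical pseudogene copies that could share its reads.

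**Figure D4:**
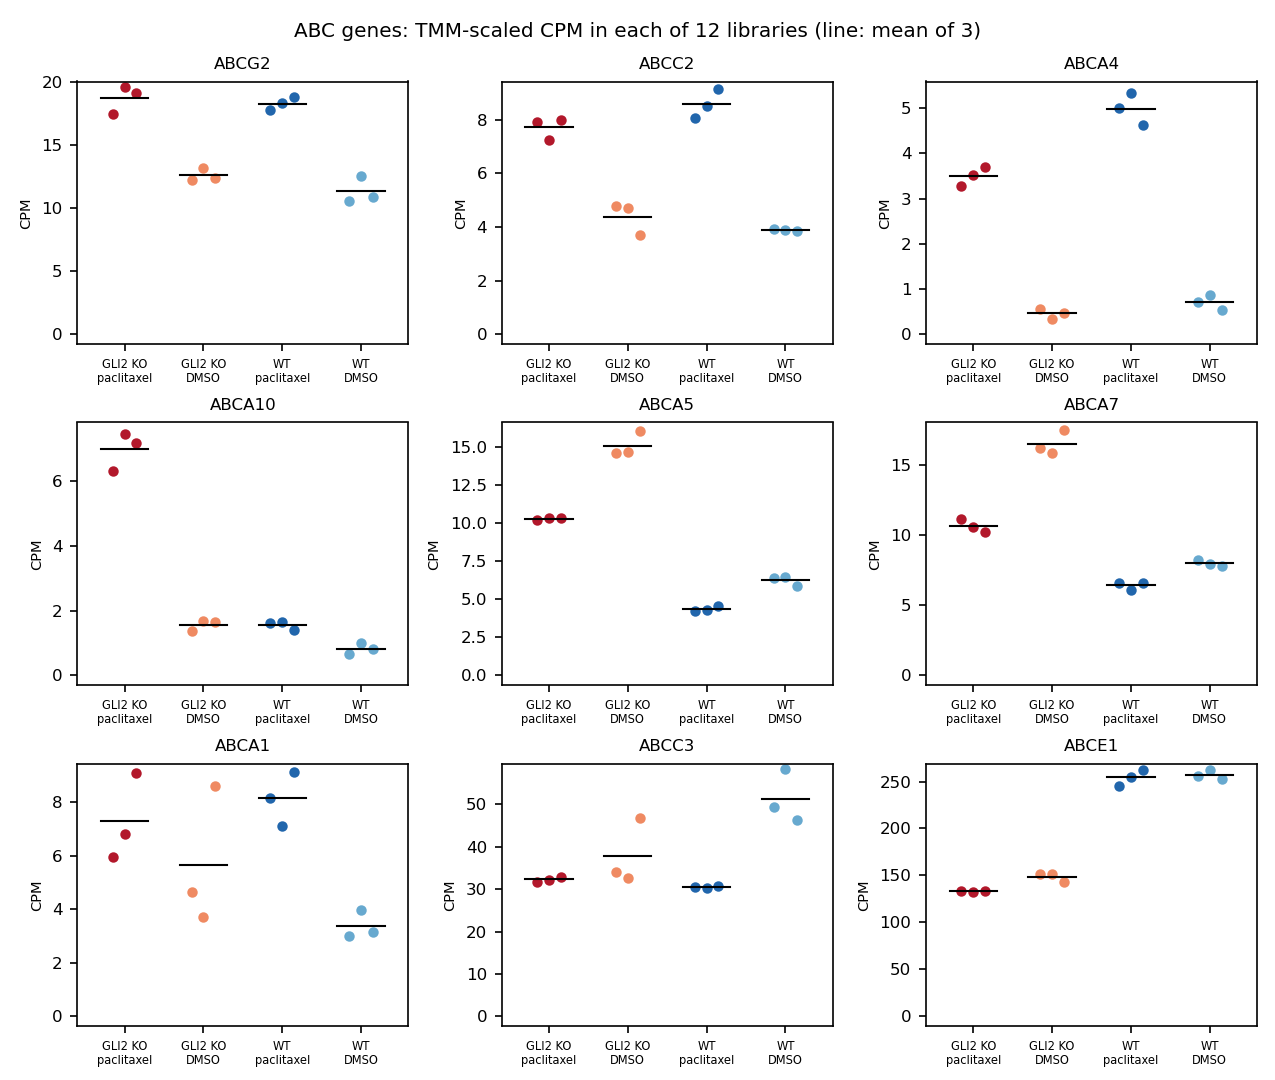
TMM-scaled CPM (y axis, per gene) in each of the 12 libraries for 9 ABC genes; points are libraries, lines are means of 3, and groups run from GLI2 KO paclitaxel on the left to WT DMSO on the right. ABCG2 and ABCC2 are above their DMSO libraries in all paclitaxel libraries, ABCA5 and ABCA7 are above their WT libraries in all GLI2 KO libraries, and GLI2 KO DMSO replicate 3 is the highest of its group for ABCA1 and ABCC3.

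Genes that serve the same exporters were also counted. Of 5 glutathione genes, GCLC, the catalytic subunit of glutathione synthesis, rose by 0.40 ± 0.04 in GLI2 KO and 0.29 ± 0.04 in WT cells, and the other 4 fell in both. GSTP1, a conjugating transferase, was lower in GLI2 KO cells by 0.53 ± 0.04 under paclitaxel and 0.55 ± 0.04 in DMSO. Of 4 tested genes of taxane uptake and metabolism, CYP2C8, which hydroxylates paclitaxel in liver, rose by 2.85 ± 0.83 in GLI2 KO and 3.13 ± 0.89 in WT cells, and SLCO1B3, a hepatic uptake carrier, fell by 0.79 ± 0.12 and 0.60 ± 0.12. Of 18 tested regulators of ABC genes, 5 rose and 11 fell in GLI2 KO and 5 rose and 10 fell in WT cells, where 33.0% and 32.2% of all tested genes rose and fell in GLI2 KO and 34.6% and 32.1% in WT cells. NR1H4, the bile acid receptor FXR, had the largest rises (5.81 ± 0.38 in GLI2 KO and 8.11 ± 0.53 in WT cells), followed by FOXO1 (0.89 ± 0.06 and 1.37 ± 0.07), and SREBF1 fell by 1.06 ± 0.07 and 1.19 ± 0.08. Counts of NR1H4 and CYP2C8 are not given here. For a gene near 0 in DMSO a rise is partly a condition of being tested, so the size of these rises is uncertain. Between genotypes, FOXO1 and SREBF1 were higher in GLI2 KO cells under both treatments, by 0.68 ± 0.06 and 0.99 ± 0.08 under paclitaxel and 1.15 ± 0.07 and 0.86 ± 0.07 in DMSO.

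Among the 13 tested lipid transporters, 6 rose and 3 fell under paclitaxel in GLI2 KO cells and 8 rose and 3 fell in WT cells, where 33.0% and 32.2% of all tested genes rose and fell in GLI2 KO and 34.6% and 32.1% in WT cells. ABCA9, ABCA6, ABCA10 and ABCA5 lie head to tail within chr17:68974488-69327244, all on the minus strand. ABCA9 had 53, 69 and 60 counts in GLI2 KO paclitaxel libraries, 0, 0 and 2 in GLI2 KO DMSO libraries, 20, 14 and 17 in WT paclitaxel libraries and 0, 0 and 1 in WT DMSO libraries. ABCA6 had 41, 48 and 60 counts in GLI2 KO paclitaxel libraries, 1, 2 and 1 in GLI2 KO DMSO libraries, 14, 13 and 15 in WT paclitaxel libraries and 1, 0 and 1 in WT DMSO libraries. Both were at the floor in DMSO and were higher in every GLI2 KO paclitaxel library than in any WT paclitaxel library. Summed ratios of paclitaxel to DMSO were 89.9 (24.5 to 748) in GLI2 KO and 55.6 (9.54 to 2239) in WT cells for ABCA9. They were 36.8 (14.1 to 137) and 22.9 (5.96 to 195) for ABCA6. Under paclitaxel, GLI2 KO cells held 3.39 times the ABCA9 (2.48 to 4.72) and 3.37 times the ABCA6 (2.38 to 4.87) of WT cells.

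ABCA10 was well above the floor in every library, so its response can be compared between genotypes. It had 570, 694 and 793 counts in GLI2 KO paclitaxel libraries, 108, 148 and 149 in GLI2 KO DMSO libraries, 144, 148 and 143 in WT paclitaxel libraries and 67, 81 and 71 in WT DMSO libraries. As CPM the means were 6.99 ± 0.61, 1.57 ± 0.16, 1.56 ± 0.13 and 0.813 ± 0.17 in the same order. The GLI2 KO DMSO libraries thus overlapped the WT paclitaxel libraries, and the GLI2 KO paclitaxel libraries stood above all others. ABCA10 rose by 2.15 ± 0.11 in GLI2 KO and 0.95 ± 0.15 in WT cells, and the difference between these rises was 1.20 ± 0.19 with an adjusted p of 0.00016, which passed in all 20 alternatives run for it. GLI2 KO exceeded WT cells by 2.17 ± 0.11 under paclitaxel, a log2 difference that 193 of 21974 genes reached with ABCA10 included, and by 0.97 ± 0.15 in DMSO.

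ABCA5, a lysosomal member at the far end of the cluster, moved the other way under paclitaxel. It had 10.2, 10.3 and 10.3 CPM in GLI2 KO paclitaxel libraries, 14.6, 14.7 and 16.0 in GLI2 KO DMSO libraries, 4.19, 4.30 and 4.56 in WT paclitaxel libraries and 6.40, 6.47 and 5.88 in WT DMSO libraries, and no 2 groups overlapped. It fell by 0.56 ± 0.06 in GLI2 KO and 0.52 ± 0.07 in WT cells (adjusted p 8.15e-09 and 2.7e-07). GLI2 KO exceeded WT cells by 1.24 ± 0.06 under paclitaxel and 1.27 ± 0.06 in DMSO (adjusted p 4.8e-14 and 7.85e-15). MAP2K6, the next tested gene on that side, also fell under paclitaxel and was higher in GLI2 KO cells by 1.30 under both treatments. LINC01483, beyond it, was higher in GLI2 KO cells by 1.18 under paclitaxel (adjusted p 0.0382) and had a value of 1.26 in DMSO (adjusted p 0.18). PRKAR1A, the nearest tested gene on the ABCA9 side, was higher by 0.25 and 0.17. ABCA10 and ABCA5 share 3.78% of the exon bases of ABCA10, and the sources used here do not state the strand setting of the counting.

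**Figure D5:**
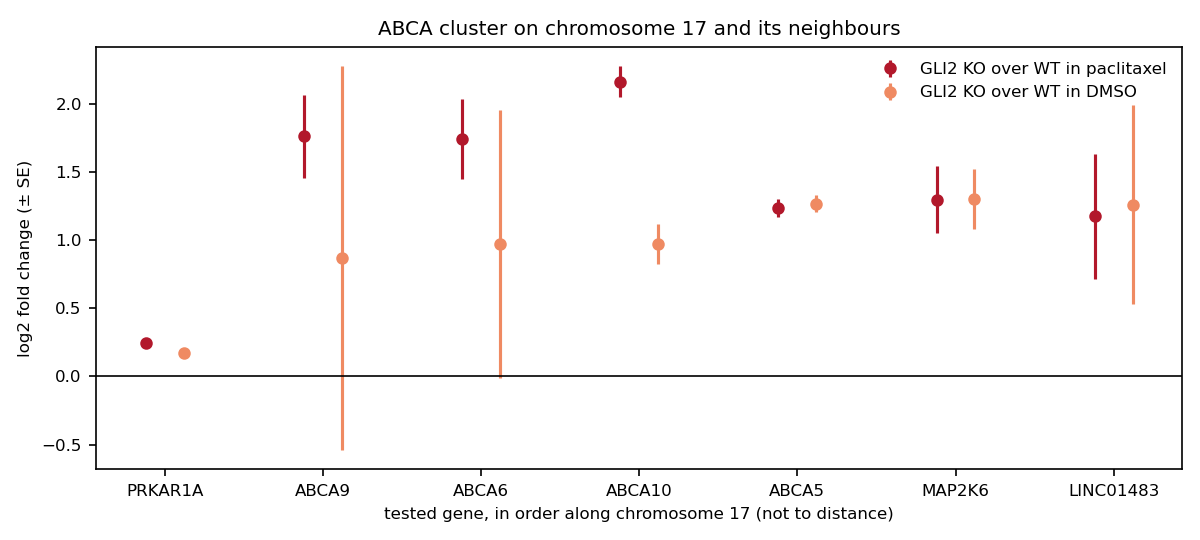
Log2 fold change of GLI2 KO over WT (y axis, bars are ± SE from edgeR) for the tested genes within 500 kb of ABCA9 or ABCA10 in their order along chromosome 17 (x axis, not to distance), under paclitaxel in dark red and in DMSO in orange. From ABCA10 to MAP2K6 both values are positive with short bars, PRKAR1A lies near 0, and ABCA9, ABCA6 and LINC01483 have long bars in DMSO.

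ABCA4, the retinal flippase of photoreceptors, had the largest rise among members with at least 30 counts in every library. It had 296, 327 and 408 counts in GLI2 KO paclitaxel libraries, 44, 30 and 43 in GLI2 KO DMSO libraries, 443, 481 and 468 in WT paclitaxel libraries and 75, 72 and 48 in WT DMSO libraries. Paclitaxel and DMSO libraries did not overlap in either genotype, and the genotypes did not overlap under paclitaxel. ABCA4 rose by 2.93 ± 0.15 in GLI2 KO and 2.80 ± 0.14 in WT cells (adjusted p 2.8e-14 and 9.4e-15). It was lower in GLI2 KO cells by 0.51 ± 0.11 under paclitaxel (adjusted p 0.000462) and by 0.64 ± 0.19 in DMSO (adjusted p 0.00982), the opposite direction to the chromosome 17 members. The DMSO call was lost without GLI2 KO DMSO replicate 2 or WT DMSO replicate 2, at adjusted p-values of 0.0874 and 0.0733.

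ABCA1, ABCG1 and ABCG4 pass cellular cholesterol to lipoproteins, and ABCA1 and ABCG1 are classic targets of the liver X receptors. ABCA1 had 5.95, 6.81 and 9.09 CPM in GLI2 KO paclitaxel libraries, 4.65, 3.72 and 8.60 in GLI2 KO DMSO libraries, 8.17, 7.11 and 9.14 in WT paclitaxel libraries and 2.98, 3.97 and 3.15 in WT DMSO libraries. The WT groups did not overlap, and in GLI2 KO cells DMSO replicate 3 lay within the paclitaxel range. ABCA1 rose by 1.28 ± 0.32 in WT cells (adjusted p 0.00652) and had a value of 0.37 ± 0.30 in GLI2 KO cells (adjusted p 0.322). Without GLI2 KO DMSO replicate 3 the value in GLI2 KO cells was 0.81 with an adjusted p of 0.0117. The difference between genotypes in the paclitaxel effect was -0.92 ± 0.44 (adjusted p 0.235). It passed in 1 of 20 alternatives, and without GLI2 KO DMSO replicate 3 it was -0.47 with an adjusted p of 0.365.

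ABCG1 had 18, 17 and 34 counts in GLI2 KO paclitaxel libraries, 17, 12 and 29 in GLI2 KO DMSO libraries, 21, 13 and 15 in WT paclitaxel libraries and 6, 4 and 8 in WT DMSO libraries. The WT DMSO libraries were below all the others. ABCG1 rose by 1.40 ± 0.45 in WT cells (adjusted p 0.00895), a call lost without WT paclitaxel replicate 1 (adjusted p 0.054), and had a value of 0.04 ± 0.35 in GLI2 KO cells. In DMSO it was higher in GLI2 KO cells by 1.76 ± 0.44 (adjusted p 0.00208). ABCG4 averaged 1.43 ± 0.088 CPM in GLI2 KO paclitaxel, 0.805 ± 0.020 in GLI2 KO DMSO, 1.18 ± 0.050 in WT paclitaxel and 0.461 ± 0.0935 in WT DMSO cells (SD, n = 3 each). It rose by 0.83 ± 0.15 and 1.34 ± 0.16 in GLI2 KO and WT cells, and was higher in GLI2 KO cells in DMSO by 0.80 ± 0.17 (adjusted p 0.00052).

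Of 11 partners of cholesterol efflux and other liver X receptor targets, 4 rose and 6 fell in each genotype under paclitaxel, where 33.0% and 32.2% of all tested genes rose and fell in GLI2 KO and 34.6% and 32.1% in WT cells. APOE, the lipoprotein that accepts cholesterol, rose by 1.42 ± 0.11 in GLI2 KO and 1.47 ± 0.10 in WT cells, APOA1 rose by 1.76 ± 0.32 and 1.45 ± 0.34, and LPCAT3, a phospholipid acyltransferase, fell by 1.04 ± 0.04 and 0.83 ± 0.05. Between genotypes, 4 of the 11 were higher and 4 lower in GLI2 KO cells under paclitaxel, against 23.4% and 22.2% of all tested genes. In DMSO 3 were higher and 4 lower, against 22.0% and 19.6%. The median log2 difference of the list was -0.11 under paclitaxel and -0.07 in DMSO. Among those higher, SMPDL3A, MYLIP and LPCAT3 differed by 0.96 ± 0.08, 0.17 ± 0.05 and 0.41 ± 0.05 under paclitaxel and by 1.12 ± 0.08, 0.69 ± 0.05 and 0.61 ± 0.04 in DMSO. The direction thus differed from gene to gene within the list.

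ABCA7, a phospholipid transporter known as an Alzheimer's disease risk gene, had 11.1, 10.6 and 10.2 CPM in GLI2 KO paclitaxel libraries, 16.3, 15.9 and 17.5 in GLI2 KO DMSO libraries, 6.60, 6.09 and 6.56 in WT paclitaxel libraries and 8.26, 7.98 and 7.84 in WT DMSO libraries. No 2 of the groups overlapped. It fell by 0.63 ± 0.06 in GLI2 KO and 0.32 ± 0.06 in WT cells, and the difference between these falls was -0.31 ± 0.08 with an adjusted p of 0.0148, and -0.24 with an adjusted p of 0.0603 without replicate 3 of both GLI2 KO groups. GLI2 KO exceeded WT cells by 0.73 ± 0.06 under paclitaxel and 1.04 ± 0.06 in DMSO. ARHGAP45, which lies beside it on chromosome 19, was higher in GLI2 KO cells by 0.75 under paclitaxel and 0.72 in DMSO. CNN2, on the other side of ABCA7, had values of -0.02 and 0.12 in the same order, and POLR2E, beyond ARHGAP45, 0.02 and 0.10. ABCA2, a lysosomal sterol transporter, fell by 0.36 ± 0.05 in GLI2 KO and 0.31 ± 0.05 in WT cells and showed no called genotype difference.

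ABCA3, which loads surfactant lipid in lung, and ABCA13 passed no test at mean levels of 9.21 to 10.3 and 1.47 to 1.90 CPM. ABCB4, the phosphatidylcholine floppase of bile and the close paralog next to ABCB1, had 29, 18 and 41 counts in GLI2 KO paclitaxel libraries, 15, 4 and 8 in GLI2 KO DMSO libraries, 13, 17 and 12 in WT paclitaxel libraries and 7, 6 and 5 in WT DMSO libraries. It rose by 1.47 ± 0.41 in GLI2 KO and 1.18 ± 0.48 in WT cells (adjusted p 0.00264 and 0.0352) and was higher in GLI2 KO cells under paclitaxel by 0.98 ± 0.38 (adjusted p 0.0358). ABCB4 passed the low-count filter through its paclitaxel libraries, so a rise was partly a condition of being tested. The WT call was lost without any one of the 3 WT DMSO libraries or WT paclitaxel replicates 1 and 2 (adjusted p 0.0553 to 0.122). The genotype call was lost without replicate 1 or 3 of either paclitaxel group (0.0849 to 0.171). Reads of ABCB1 and ABCB4 that map to both could have been split between them, so the ABCB4 values are uncertain.

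The 9 members near 0 in DMSO can be read against other genes near 0. With near 0 set as a mean of at most 10 counts in the DMSO libraries of either genotype, 3911 tested genes qualified, among them 8 tested members. Of those 8, 6 rose in GLI2 KO and 7 in WT cells, while 60.5% and 64.9% of the 3911 genes rose. Under paclitaxel 6 of the 8 were higher in GLI2 KO than in WT cells and 1, ABCC9, was lower, while 13.1% of the 3911 were higher and 10.4% lower. Among the 6, ABCA6 and ABCA9 are neighbours, as are ABCB1 and ABCB4, so these calls are not independent. In DMSO 2 of the 8 were higher in GLI2 KO cells and 1 was lower, against 11.1% and 6.19% of the 3911. Most such genes passed the low-count filter through their paclitaxel libraries, so a rise under paclitaxel is partly a condition of being tested, and for ABCB5 so is the genotype difference.

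ABCB10, ABCB8 and ABCB6, which serve mitochondria and porphyrin transport, fell under paclitaxel in both genotypes. ABCB10, which serves haem synthesis in the inner mitochondrial membrane, had 33.5, 32.8 and 33.0 CPM in GLI2 KO paclitaxel libraries, 58.4, 59.3 and 56.1 in GLI2 KO DMSO libraries, 40.9, 40.7 and 39.4 in WT paclitaxel libraries and 70.7, 68.3 and 67.4 in WT DMSO libraries. No 2 groups overlapped. It fell by 0.81 ± 0.03 in GLI2 KO and 0.77 ± 0.03 in WT cells (adjusted p 5.9e-16 and 1.4e-15), and GLI2 KO was below WT by 0.28 ± 0.03 under paclitaxel and 0.25 ± 0.03 in DMSO. ABCB8, a mitochondrial iron-linked transporter, fell by 0.33 ± 0.04 and 0.42 ± 0.04 in GLI2 KO and WT cells but was higher in GLI2 KO cells by 0.42 ± 0.04 under paclitaxel and 0.33 ± 0.04 in DMSO.

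ABCB6, a porphyrin transporter, fell by 0.71 ± 0.18 in GLI2 KO and 0.60 ± 0.17 in WT cells, but 54.7% of its exon bases are shared with another annotated gene on the same strand. ABCB9, a lysosomal peptide transporter that shares 24.5% of its exon bases with OGFOD2, ARL6IP4 and a further transcript on the other strand, rose by 0.17 ± 0.05 in WT cells and was higher in GLI2 KO cells by 0.15 ± 0.05 under paclitaxel and 0.23 ± 0.05 in DMSO. The genotype call of ABCB9 under paclitaxel was lost with upper-quartile factors and without any one of GLI2 KO paclitaxel replicates 1 and 3 and WT paclitaxel replicates 1 and 2 (adjusted p 0.0545 to 0.104). Of 9 haem and iron-sulfur genes, 8 fell in GLI2 KO and 6 in WT cells, where 32.2% and 32.1% of all tested genes fell. FECH, the last enzyme of haem synthesis, fell by 0.41 ± 0.04 and 0.43 ± 0.04, and ALAS1, the first, rose by 0.27 ± 0.04 and 0.29 ± 0.04.

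ABCD3, also called PMP70, imports long-chain acyl-CoAs into peroxisomes. It had 122, 121 and 123 CPM in GLI2 KO paclitaxel libraries, 171, 171 and 173 in GLI2 KO DMSO libraries, 111, 115 and 113 in WT paclitaxel libraries and 150, 150 and 149 in WT DMSO libraries, and no 2 groups overlapped. It fell by 0.49 ± 0.03 in GLI2 KO and 0.41 ± 0.03 in WT cells (adjusted p 5.75e-14 and 2.2e-12). GLI2 KO exceeded WT cells by 0.11 ± 0.03 under paclitaxel and 0.20 ± 0.03 in DMSO. All 7 peroxisome partners on the list fell in both genotypes, where 32.2% and 32.1% of all tested genes fell, the most for HSD17B4 of fatty acid oxidation, by 0.59 ± 0.03 in GLI2 KO and 0.44 ± 0.03 in WT cells, and the median change was -0.26 and -0.21, beside 0.02 and 0.03 over all genes.

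ABCD4, which moves cobalamin out of lysosomes, fell by 0.21 ± 0.03 in GLI2 KO and 0.28 ± 0.03 in WT cells, and was lower in GLI2 KO cells by 0.15 ± 0.03 under paclitaxel and 0.22 ± 0.03 in DMSO. ABCD2, a peroxisomal fatty acid importer, had 27, 20 and 30 counts in GLI2 KO paclitaxel libraries, 9, 11 and 26 in GLI2 KO DMSO libraries, 5, 15 and 17 in WT paclitaxel libraries and 9, 6 and 4 in WT DMSO libraries. ABCD2 was higher in GLI2 KO cells by 0.99 ± 0.40 under paclitaxel and 1.35 ± 0.48 in DMSO (adjusted p 0.0453 and 0.0266), and without GLI2 KO DMSO replicate 3 the DMSO value was 0.79 with an adjusted p of 0.27. Without WT paclitaxel replicate 1 the paclitaxel value was 0.65 with an adjusted p of 0.217.

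ABCC9 encodes SUR2, the regulatory subunit of ATP-sensitive potassium channels of muscle and vessels. It had 22, 24 and 25 counts in GLI2 KO paclitaxel libraries, 5, 7 and 9 in GLI2 KO DMSO libraries, 54, 71 and 70 in WT paclitaxel libraries and 18, 23 and 17 in WT DMSO libraries. The GLI2 KO libraries were below the WT libraries under both treatments, and the paclitaxel libraries above the DMSO libraries in both genotypes. It rose by 1.55 ± 0.34 in GLI2 KO and 1.70 ± 0.24 in WT cells (adjusted p 0.000299 and 1.2e-06), and was lower in GLI2 KO cells by 1.52 ± 0.24 under paclitaxel (adjusted p 7.7e-06). In DMSO, GLI2 KO cells held 0.380 times the ABCC9 of WT cells by summed counts (adjusted p 0.00254). It was the one member that was at least 2-fold lower in GLI2 KO cells, and its 4 calls named here passed in all 21 alternatives. KCNJ11, a pore subunit that pairs with sulfonylurea receptors, was also lower in GLI2 KO cells, by 1.13 ± 0.42 under paclitaxel and 1.96 ± 0.57 in DMSO (adjusted p 0.0298 and 0.00726).

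ABCE1 splits ribosomes after termination so that their subunits can be used again. It had 134, 132 and 134 CPM in GLI2 KO paclitaxel libraries, 151, 152 and 143 in GLI2 KO DMSO libraries, 246, 255 and 262 in WT paclitaxel libraries and 256, 263 and 252 in WT DMSO libraries. The genotypes were far apart under both treatments, and the WT groups overlapped. ABCE1 was 47.6% lower in GLI2 KO cells under paclitaxel (log2 -0.93 ± 0.03, adjusted p 1.5e-17) and 42.2% lower in DMSO (-0.79 ± 0.03, adjusted p 2.35e-16). In absolute CPM this is the widest genotype gap of the family. ANAPC10 and OTUD4, whose spans overlap the ends of ABCE1 on chromosome 4 and which with a further transcript share 11.9% of its exon bases, were lower in GLI2 KO cells by 0.60 and 0.57 under paclitaxel and 0.72 and 0.70 in DMSO. Paclitaxel lowered ABCE1 by 0.16 ± 0.03 in GLI2 KO cells, where library totals alone gave 0.02, and the difference from WT cells was -0.14 ± 0.04 with an adjusted p of 0.0324, passing in 13 of 20 alternatives.

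The ABCF proteins were nearly flat. ABCF1 averaged 184 ± 6.34, 179 ± 12.7, 182 ± 7.48 and 175 ± 5.25 CPM in GLI2 KO paclitaxel, GLI2 KO DMSO, WT paclitaxel and WT DMSO cells, and ABCF2, 45.8% of whose exon bases are shared with another annotated gene, 22.3 to 22.8 CPM, with no called change. ABCF3 fell by 0.16 ± 0.04 in both genotypes, and with library totals the value was 0.01 in GLI2 KO cells. Of 7 partners in ribosome recycling and translation control, 7 fell in GLI2 KO and 3 in WT cells, where 32.2% and 32.1% of all tested genes fell, and none rose. GCN1, which works with ABCF proteins in stress sensing in yeast, fell by 0.30 ± 0.03 and 0.36 ± 0.03. EIF2S1, a subunit of eIF2, was lower in GLI2 KO cells by 0.25 ± 0.03 under paclitaxel and 0.13 ± 0.03 in DMSO.

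The third comparison tests whether paclitaxel acted differently in the 2 genotypes. Of 38 members, 2 had a paclitaxel log2 fold change that was higher in GLI2 KO than in WT cells, ABCA10 among them, and 2 had one that was lower, ABCA7 and ABCE1. ABCA7 fell further in GLI2 KO cells, while ABCE1 fell in GLI2 KO cells and had no called change in WT cells. Of all tested genes 6.56% were higher and 6.93% lower, 13.5% in all. Of all tested members ABCA10 alone had a called difference above 2-fold, which 0.473% of all genes had in that direction and 0.924% in the other. For the other 34 tested members the difference did not pass, which does not show that the effects were equal. The widest of these intervals belong to members near 0 in DMSO, such as ABCA9 at 0.90 ± 2.52 and ABCB5 at 0.68 ± 3.21.

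ABC proteins named by other symbols were outside the rule. TAP1 and TAP2, the peptide transporters of antigen presentation, went in opposite directions between genotypes. TAP1 was higher in GLI2 KO cells by 0.23 ± 0.04 under paclitaxel and 0.27 ± 0.04 in DMSO, and TAP2 was lower by 0.30 ± 0.04 and 0.35 ± 0.04.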

How the data were processed

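RNA of 12 libraries was sequenced, 3 for each of 4 groups of genotype and treatment. Values are whole-number counts per gene as deposited by the authors, who per the submitters' processing notes used Trim Galore 0.6.7, STAR and DESeq2 with the hg38 build. The sources used here do not give the counter, the gene annotation or the strand setting. A second deposited table of normalized values was not used. Per the labels' protocols, RNA was polyA RNA extracted with QIAzol.

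From the counts, genes were filtered with edgeR's filterByExpr (minimum count 10), which kept 21974 of 25049 genes, scaled with TMM and tested with edgeR 4.0.16's quasi-likelihood test in 1 fit over all 4 groups (R 4.3.3, 8 residual degrees of freedom). Adjusted p-values are Benjamini-Hochberg over all tested genes within a comparison, and calls are those below 0.05. Errors of log2 fold changes are the fold change divided by the square root of F, and errors of levels are SDs over 3 libraries. For an exact permutation test of 3 against 3 libraries the smallest two-sided p is 0.1, so none is given. The test was run on simulated data before use. Depth was 83230948 to 109018776 counts, and 3 counts were taken as the floor. Per-kb levels use exon lengths of GENCODE 29.

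Alternatives were other scalings, other filters, DESeq2 1.42.0, limma-voom (limma 3.58.1), a fit on the compared groups alone and leaving out each library. Leaving out replicate 3 of both GLI2 KO groups was chosen after seeing the data. Members and lists were chosen with earlier results of these data known. Results for 2 members are not reported here, although counts over the family include them. Named genes were every other member, and for each partner list at most 3 called genes with the largest change in a comparison. Neighbours are tested genes within 500 kb. ABCA8, ABCA12, ABCB11, ABCC8, ABCG5 and ABCG8 have no row in the deposited count table and so were not analysed here.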

Additional observations from a re-analysis of the deposited data

Results flagged for a closer look

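For 3 of the members reported here the paclitaxel effect differed between GLI2 KO and WT cells by the edgeR test of that difference, given as GLI2 KO minus WT on the log2 scale. The difference was 1.20 for ABCA10 (adjusted p 0.00016), -0.31 for ABCA7 (adjusted p 0.0148) and -0.14 for ABCE1 (adjusted p 0.0324). ABCE1 lost its call without GLI2 KO DMSO replicate 1 or 2, GLI2 KO paclitaxel replicate 2, WT DMSO replicate 1 or 3, or WT paclitaxel replicate 2 or 3, at 0.0665 to 0.0935. Groups of 3 libraries are too small for a test of single outlying libraries.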

How the results depend on the processing

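No paired analysis was possible because the sample titles carry no replicate number that is shared between groups. Leaving out 1 library at a time, members that rose under paclitaxel numbered 11 to 13 in GLI2 KO and 12 to 14 in WT cells, and those that fell 14 to 14 and 13 to 15. Members higher in GLI2 KO than in WT cells numbered 9 to 13 under paclitaxel and 8 to 11 in DMSO, and lower members 6 to 7 and 6 to 8. Members with a larger or a smaller paclitaxel effect in GLI2 KO cells each numbered 1 to 3. Among the other settings, the falls in GLI2 KO cells numbered 8 with upper-quartile factors and 7 with library totals, where 17 members rose, and without replicate 3 of both GLI2 KO groups, 10 members were lower in GLI2 KO cells under paclitaxel. Among values called as reported or in the alternative, directions turned under 2 scalings, while values called in neither also turned under other settings, such as ABCA9 and ABCB1 between genotypes in DMSO. With upper-quartile factors the paclitaxel effect in WT cells was 0.0552 for ABCC5, 0.12 for ABCE1 and 0.11 for ABCC1, and that in GLI2 KO cells was 0.11 for ABCC10. With library totals it was 0.0784 for ABCC5, 0.14 for ABCE1, 0.0191 for ABCC10, 0.00084 for ABCC4 and 0.13 for ABCC1 in WT cells. In GLI2 KO cells it was 0.0015 for ABCC5, 0.0139 for ABCF3, 0.0198 for ABCE1, 0.16 for ABCC10, 0.0435 for ABCC4 and 0.0507 for ABCC1. These scalings shift the median of all genes upward under paclitaxel; the cause was not tested. Calls gained by leaving out 1 library include ABCA3, ABCC6, ABCC11 and ABCD2 under paclitaxel in WT cells, at adjusted p-values of 0.0281 to 0.049. Counts of 0 to 3 in DMSO limit the near-silent members, for which the size of a rise is known only within the wide counting intervals given.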
